A study of Homo sapiens with 16 samples.

Results

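The 41 genes described here encode proteins of the interstitial connective tissue matrix or mark the mesenchymal cells that make it. They were chosen by name, from 35810 genes counted in the series: 7 fibrillar collagen chains, 5 other interstitial collagen chains, 3 small leucine-rich proteoglycans, 5 elastic fibre and microfibril genes, 5 lysyl oxidases, 6 matricellular and adhesive matrix proteins, 4 mesenchymal surface and filament genes and 6 mesenchymal transcription factors. Of the 41, 39 passed the filter on low counts, and ELN and TWIST2 did not. The libraries came from 1 embryonic stem cell line, SA121, carrying an NGN3-GFP reporter, whose cells had been taken to the pancreatic progenitor stage by day 19. Latrunculin B, a toxin that binds actin monomers and so depolymerises actin filaments, was given at 0.5 µM, and poly(A) RNA was sequenced at 4 times, in 3 libraries at each of 3, 6 and 24 h and in 2 libraries at 12 h. Control cells were harvested at 0 h (n = 3) and, with the vehicle DMSO, at 24 h (n = 2). The labels also tag the 0 h controls as DMSO although the series text places them before treatment, so the comparisons at 3, 6 and 12 h have no control of certain vehicle and equal age, and all 3 rest on the same 0 h libraries. No label says that replicates were separate cultures, so p-values measure the spread between these samples, which may be technical.

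Fibrillar collagens are secreted as procollagen, trimmed outside the cell and assembled into fibrils, which lysyl oxidases crosslink. Small leucine-rich proteoglycans coat the fibrils, and fibrillins and fibulins build the microfibrils on which elastin is laid down. In the pancreas the epithelium is surrounded by mesenchyme that makes most of this matrix, whereas cultures differentiated toward pancreatic progenitors are mainly epithelial.

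The libraries held 23609727 to 33515398 estimated reads. The 8 pancreatic progenitor markers summed to 1823 to 3371 CPM (read counts relative to TMM-scaled library size), which fits the label. The 11 mesenchymal markers, 10 of which are among the 41 genes, summed to 68.8 to 213 CPM in 15 of the 16 libraries. Latrunculin B 12 h replicate 2 stood apart at 872 CPM. Most of that sum was COL3A1 at 684 CPM, with LUM at 75.4 CPM and COL1A1 at 62.1 CPM. Of the 9 mesenchymal markers tested, 8 were highest in that library, by unlike margins. PRRX1, at 1.35 CPM, was 1.04 times the highest of the other 15 libraries. PDGFRA was not highest there, at 16.9 CPM against up to 18.3 CPM elsewhere. The 7 epithelial markers summed to 7728 to 8332 CPM in the 5 controls, 6346 to 7487 CPM at 3 h, 6579 to 6856 CPM at 6 h and 5457 to 5944 CPM at 24 h. At 12 h they summed to 5361 CPM in replicate 1 and to 4781 CPM in replicate 2, so all drug libraries lay below all controls. The progenitor markers summed to 2591 CPM in replicate 1 and to 1823 CPM in replicate 2 of 12 h, against 2456 to 3371 CPM in the other libraries. The 6 smooth muscle and pericyte markers summed to 77.9 CPM in replicate 2 and to 35.3 to 74.8 CPM elsewhere. Of the 5 tested, 1 was highest in replicate 2. The 6 endocrine progenitor markers summed to 105 CPM in replicate 2, within the 27.8 to 293 CPM elsewhere, and 0 of 6 were highest there. The 6 endothelial markers summed to 41.9 CPM in replicate 2 and to 3.93 to 16.7 CPM elsewhere. The 4 of them that were tested were all highest in replicate 2. CDH5, a defining endothelial gene, was at 0.981 CPM there and at 0.00 to 0.368 CPM outside 12 h. The 5 neural crest and Schwann markers summed to 19.9 CPM against 3.54 to 11.2 CPM, both of the 2 tested were highest in replicate 2, and SOX10 was at 0.304 CPM. FAP, a marker of activated fibroblasts, was at 0.0676 CPM in that library and at 0 in all but 1 of the others. The part of these cell type differences in the results was not tested, and in bulk RNA fewer cells of a type and less RNA per cell cannot be told apart.

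Levels between genes were compared per length, as TPM. At 0 h the 41 genes spanned from VIM, the intermediate filament of mesenchymal and of many cultured cells, at 250.2 TPM ± 18.5 (SD, n = 3) to TWIST2, a mesenchymal transcription factor, at 0.0424 TPM ± 0.0455 (SD, n = 3). COL11A1 came next after VIM at 122.6 TPM ± 11.9 (SD, n = 3), and the gap between them was larger than the spread of either. COL6A1 followed at 42.7 TPM ± 0.736 (SD, n = 3), THBS1 at 36.0 TPM ± 3.25 (SD, n = 3) and LOXL1 at 30.4 TPM ± 3.05 (SD, n = 3). The libraries of COL6A1 all lay above those of THBS1, whereas those of THBS1 and LOXL1 overlapped, so these neighbours in the order cannot be ranked. In all, 12 genes exceeded 10 TPM, 19 lay between 1 and 10 TPM and 10 lay under 1 TPM. COL1A1, the major collagen chain of most connective tissue, was at 10.4 TPM ± 2.57 (SD, n = 3), under COL1A2 at 26.2 TPM ± 7.18 (SD, n = 3), with which it forms type I collagen. DCN at 2.02 TPM ± 1.76 (SD, n = 3) and COL3A1 at 21.4 TPM ± 8.16 (SD, n = 3) spread widely between the 3 libraries. The levels of COL6A3 and MGP rest largely on transcripts annotated as retained introns, which held 83.2% of the TPM of COL6A3 and 94.3% of that of MGP, so they are uncertain as measures of the coding RNA. Protein-coding transcripts held 34.9% of the TPM of ZEB1, 35.8% of that of LUM, 40.7% of that of LOXL1 and 52.9% of that of FBN1, so the same limit touches these 4 genes. ELN was counted at 1 to 4 reads per library and TWIST2 at 0 to 4, which is too few to compare groups.

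**Figure D1:**
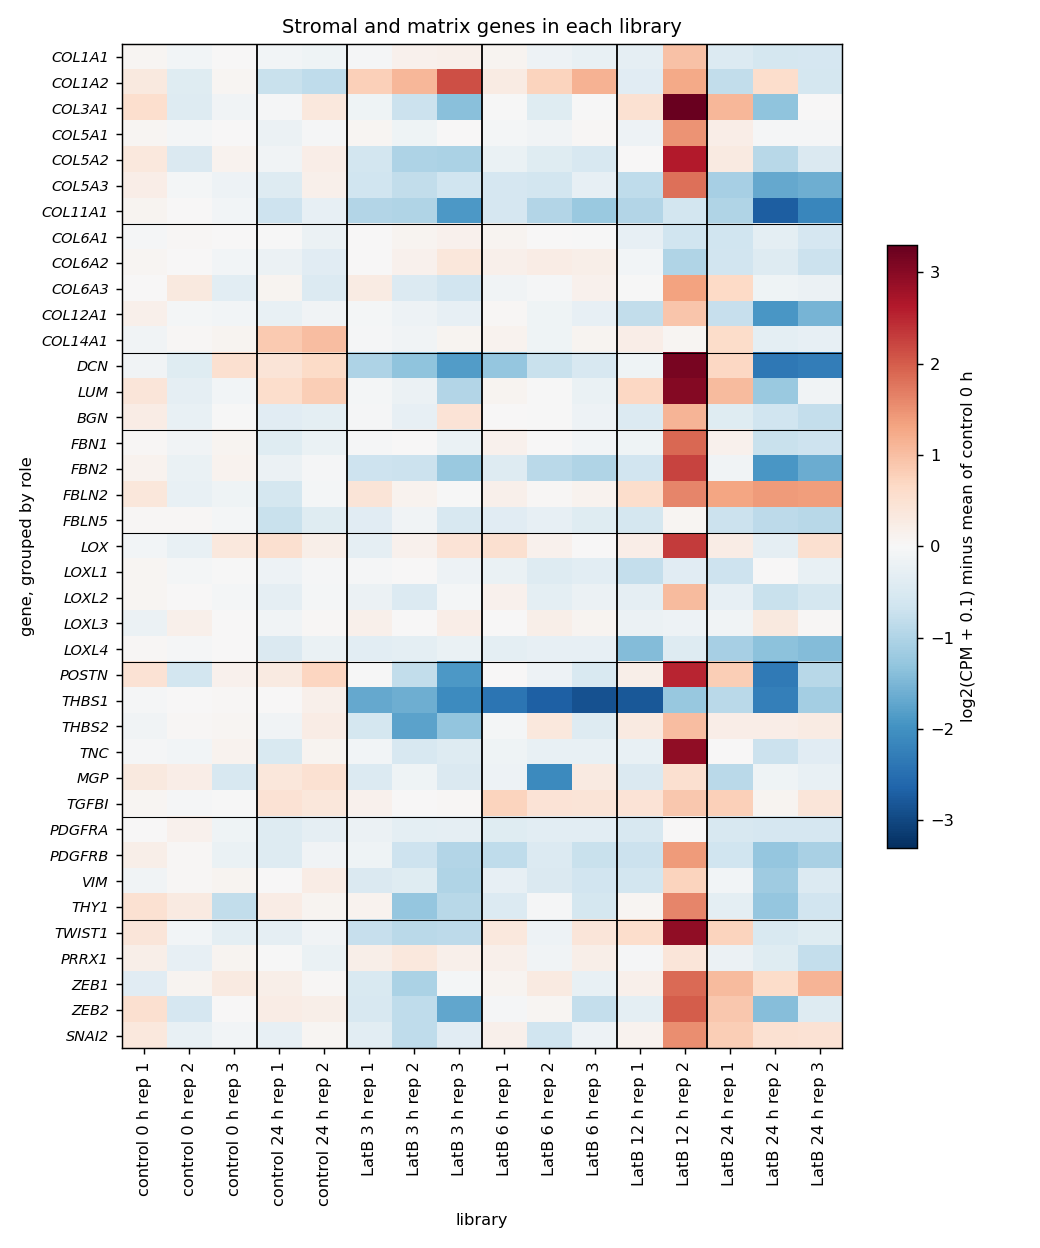
Level of each of the 39 tested genes in each of the 16 libraries, as log2(CPM + 0.1) minus the mean of the 3 control 0 h libraries (blue lower, red higher); columns are libraries, rows are genes grouped by role. The column of latrunculin B 12 h replicate 2 is red for most genes, the row of THBS1 is blue in all 11 latrunculin B libraries, and COL11A1 is blue in all of them too.

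In the fit of all 6 groups, 12 of the 39 stromal genes passed the test at 3, 6 or 24 h, and most calls were of a lower level than in the controls. A gene was called where edgeR gave an adjusted p under 0.05 over all 16705 genes tested. At 3 h, 4 of 39 (10.3%) were called, 1 higher and 3 lower, where 31.6% of all genes tested were called (16.8% higher and 14.7% lower). At 6 h, 3 of 39 (7.69%) were called, 1 higher and 2 lower, against 43.3% of all genes (22.9% higher and 20.4% lower). At 24 h against the 24 h control, 8 of 39 (20.5%) were called, 1 higher and 7 lower, against 40.8% of all genes (21.9% higher and 18.8% lower). The median log2 fold change of the 39 genes was -0.33 at 3 h, -0.13 at 6 h and -0.30 at 24 h, beside 0.00, -0.01 and 0.01 for all genes tested. At least 1 call at 3, 6 or 24 h was made for 30.8% of the 39 genes and for 65.0% of all genes tested. With 12 h added the shares were 59.0% (23 genes) and 70.1%, and the calls of higher genes at 12 h rest on 1 library, as described next. THBS1 was called in all 4 comparisons. With a log2 fold change of at least 1 required as well, 4 of 39 (10.3%) were called at 3 h against 3.68% of all genes, and 1 of 39 (2.56%) at 6 h against 6.18%. The same rule called 11 of 39 (28.2%) at 12 h against 7.58%, and 5 of 39 (12.8%) at 24 h against 7.26%. The member counts also depend on which groups share the estimate of spread. When the fit held just the groups compared, 11 of 39 (28.2%) were called at 3 h, where 36.5% of all genes were. At 6 h 11 of 39 (28.2%) were, beside 51.8% of all genes. At 12 h it was 4 of 39 (10.3%) beside 17.9%, and at 24 h 10 of 39 (25.6%) beside 39.3%. Added at 3 h were DCN, TWIST1, COL5A2, FBN2, COL5A3, VIM and PDGFRA, all lower. At 6 h COL1A2 and COL6A2 were added as higher, and COL11A1, FBN2, PDGFRB, VIM, FBLN5 and LOXL1 as lower. COL11A1 was added as lower at 12 h. ZEB1 was added as higher and COL1A1 and COL6A2 as lower at 24 h. Most calls at 12 h and that of COL11A1 at 24 h were lost. Below, a call with no fit named is from the fit of all 6 groups.

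At 12 h the picture depended on which of the 2 libraries was read. With both, 16 of 39 genes were called, 12 higher and 4 lower, and 35.8% of all genes tested were called (19.1% higher and 16.8% lower). The median log2 fold change was 0.71, beside 0.01 for all genes. With replicate 1 as the only 12 h library, 0 of 39 genes were called higher and 5 lower, where 30.7% of all genes were called (16.1% higher and 14.5% lower), and the median was -0.21. At an unadjusted p under 0.05 in that edgeR fit 2 genes were higher and 10 lower, where 21.2% of all genes were higher and 19.5% lower. With replicate 2 as the only one, 24 were called higher and 3 lower, where 35.8% of all genes were called (18.5% higher and 17.3% lower), and the median was 1.22. At an unadjusted p under 0.05 there, 27 were higher and 4 lower, where 22.8% of all genes were higher and 21.6% lower. In both of these fits the lone library was assumed to vary like the other groups. Every call of a higher stromal gene at 12 h therefore rested on replicate 2, and the calls shared by both single libraries were those of a lower THBS1 alone.

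**Figure D2:**
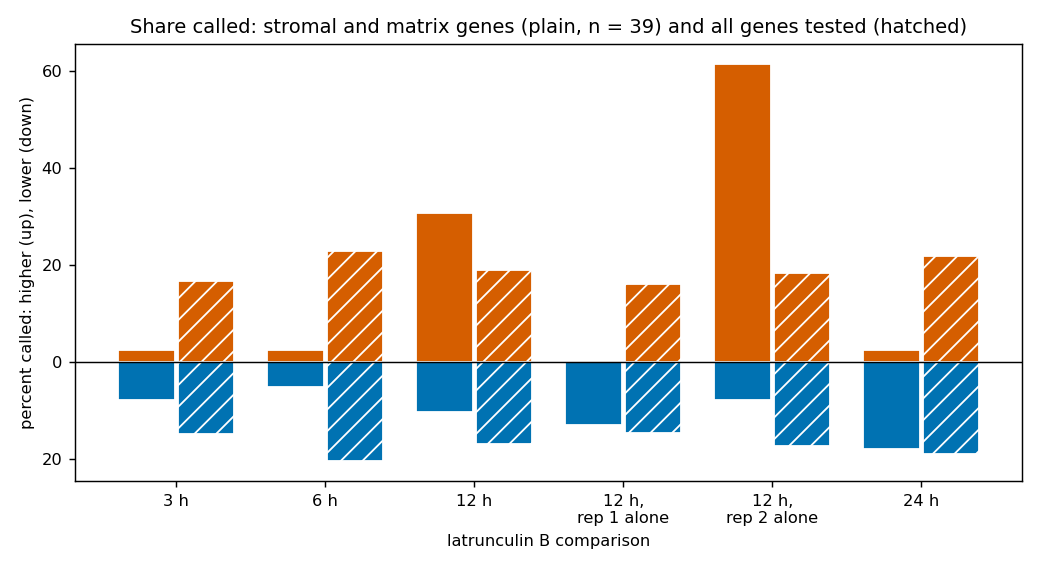
Share of the 39 tested stromal and matrix genes (plain bars) and of all genes tested (hatched bars) called higher (orange, up) or lower (blue, down) by edgeR at an adjusted p under 0.05, in percent, for each drug comparison and for each 12 h library alone. With 12 h replicate 2 alone 24 of the 39 were called higher, and with replicate 1 alone 0.

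Measured directly, 36 of the 39 genes were higher in 12 h replicate 2 than in replicate 1, where 47.8% of all genes tested were, and 28 were more than 2 times higher, where 7.42% of all genes were. The median ratio of replicate 2 to replicate 1 was 2.95 for the 39 genes and 0.989 for all genes with reads in both. For 29 of the 39 genes replicate 2 was the highest of all 16 libraries, which held for 13.9% of all genes. For 15 it was more than 2 times the highest of the other 15 libraries, which held for 1.69% of all genes: COL3A1, COL5A1, COL5A2, COL5A3, DCN, LUM, FBN1, FBN2, LOX, POSTN, TNC, PDGFRB, THY1, TWIST1 and ZEB2. The widest ratios were those of DCN (10.8), TNC (9.14), FBN2 (7.29), COL5A3 (6.92) and COL3A1 (6.77). By role, the median ratio was 5.10 for the 3 small leucine-rich proteoglycans, 3.39 for the 5 transcription factors tested, 3.16 for the fibrillar collagens, 3.08 for the elastic fibre genes tested, and 0.889 for the other interstitial collagens. COL6A1 (0.756), COL6A2 (0.533) and COL14A1 (0.889) were the 3 genes lower in replicate 2. These counts and ratios used CPM and depend on the measure for some genes. In TPM, PDGFRB stood at 3.83 in replicate 2 and 2.98 in replicate 1. THY1 stood at 1.89 TPM in replicate 2 and 1.28 TPM in control 0 h replicate 2. The rest of the 15 kept a ratio over 2 in TPM. FBLN2 was at 3.55 TPM in replicate 2, under 3.64 TPM in latrunculin B 24 h replicate 3.

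**Figure D3:**
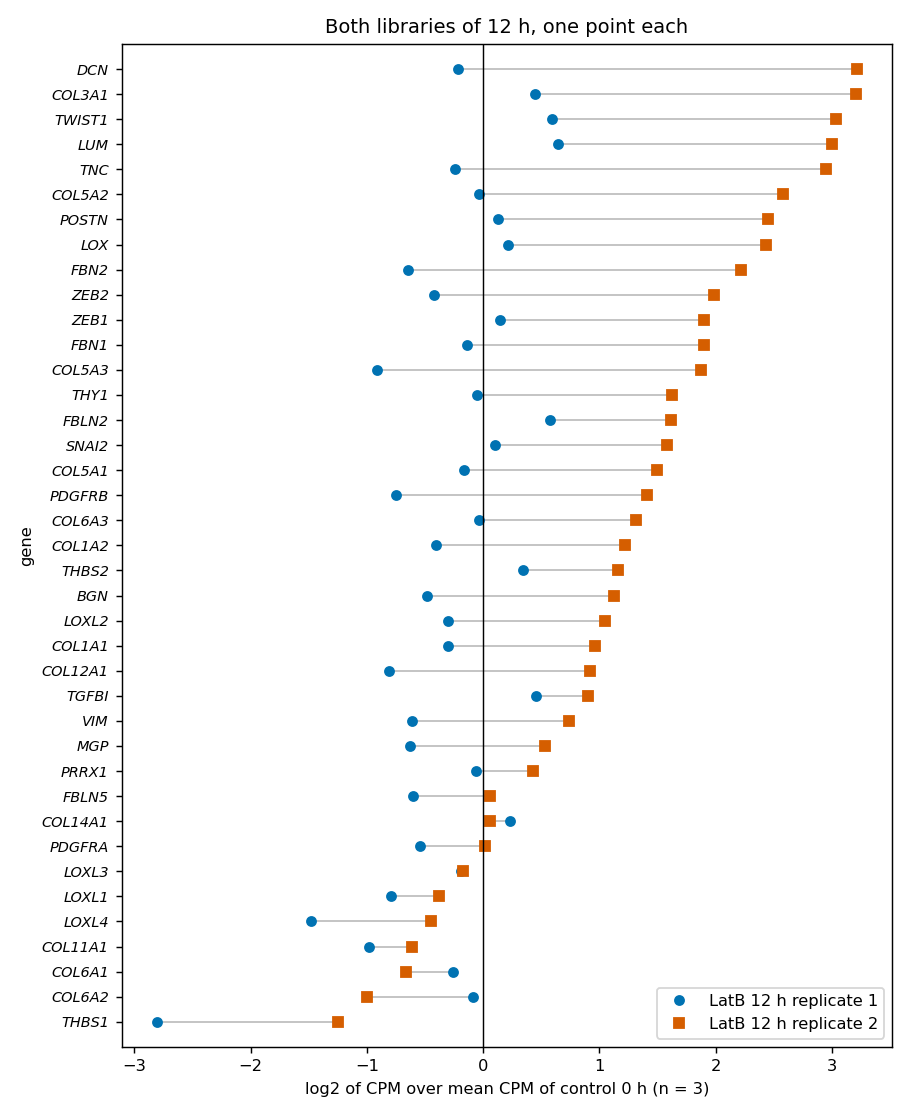
The 39 tested genes in the 2 libraries of 12 h, as log2 of CPM over the mean CPM of the 3 control 0 h libraries; each gene has a blue circle for replicate 1 and an orange square for replicate 2, joined by a line. Replicate 2 lies to the right for 36 genes, by most for DCN, and THBS1 lies left of 0 in both.

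Libraries of other groups also differed in one direction over many of these genes. At 24 h, replicate 1 was the highest of the 3 latrunculin B libraries for 29 of 39 genes, where 34.9% of all genes tested had it highest, and replicate 2 the lowest for 23, where 35.2% of all genes did. At 0 h, replicate 1 was the highest for 25 genes, beside 34.9% of all genes. Of the 2 libraries of the 24 h control, replicate 2 was the higher for 28 genes, beside 53.3% of all genes. In the 3 h group replicate 3 was the lowest for 19 genes, beside 35.6% of all genes. Replicate 1 was the highest for 20 genes at 3 h and for 20 at 6 h, beside 30.8% and 34.2% of all genes. Because the spread is estimated over all groups, the 12 h pair included, the other comparisons were also fitted with no 12 h library, a choice made after the data were seen. Then 8 of 39 genes were called at 3 h (1 higher, 7 lower), where 37.1% of all genes were (19.7% higher and 17.4% lower), 4 at 6 h (1 higher, 3 lower), where 47.7% were (25.2% higher and 22.5% lower), and 13 at 24 h (2 higher, 11 lower), where 46.9% were (25.1% higher and 21.8% lower).

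**Figure D4:**
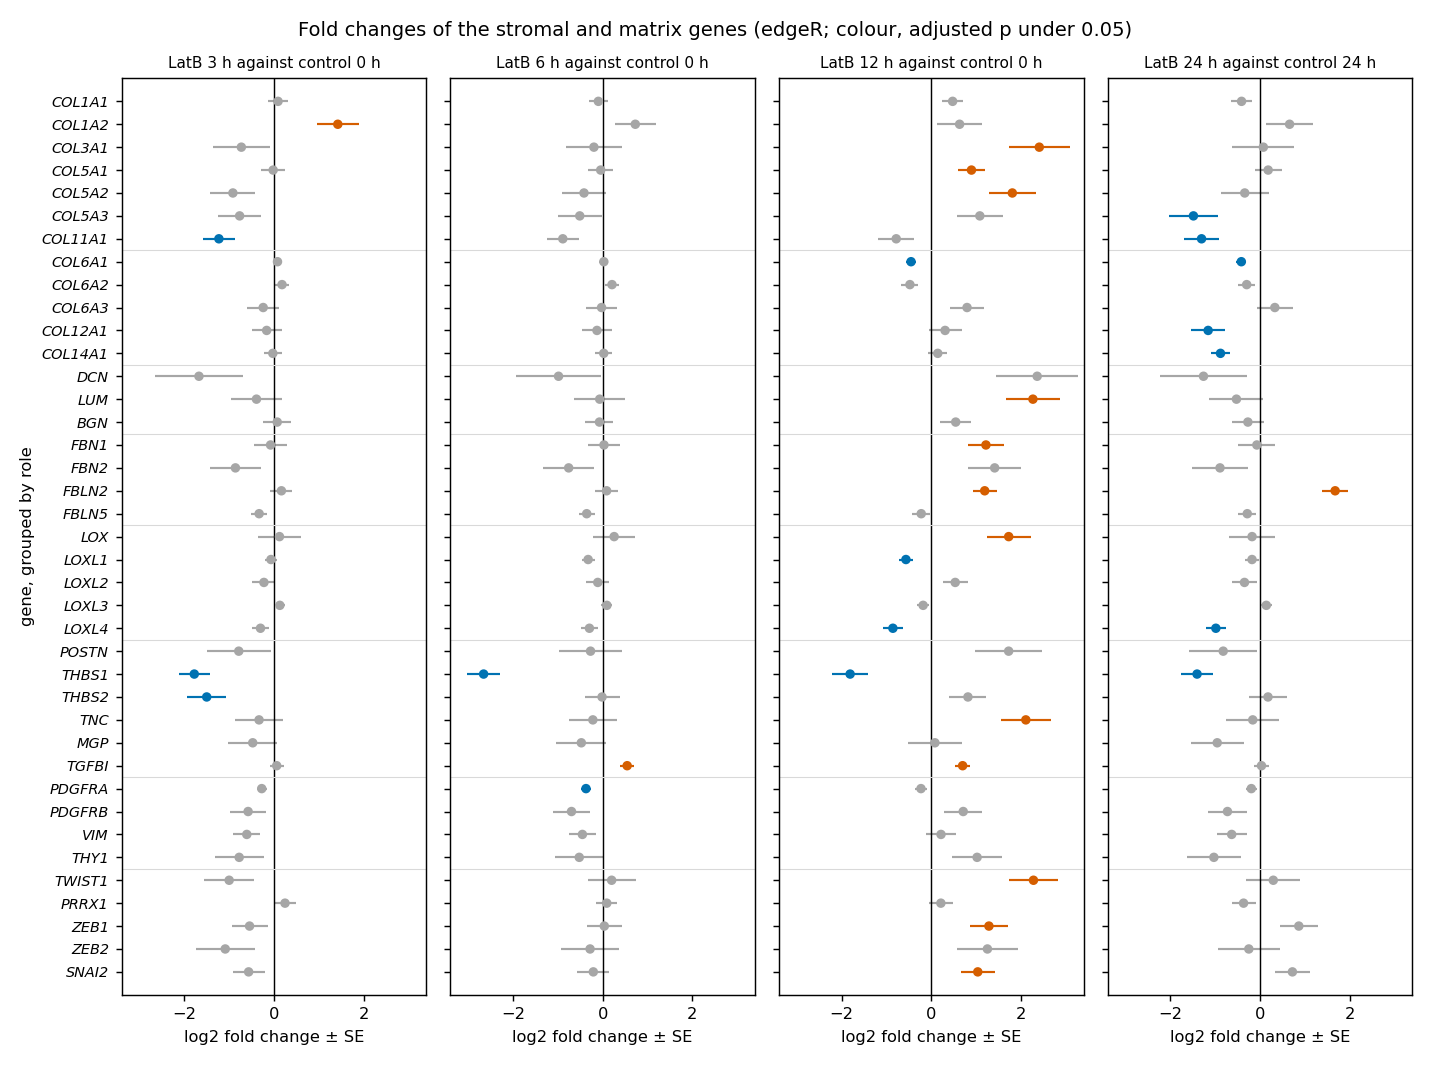
Log2 fold change of the 39 tested genes in each drug comparison (points, with bars for ± SE from edgeR), coloured where the adjusted p was under 0.05 (orange higher, blue lower, grey not called). THBS1 is blue in all 4 panels, FBLN2 is orange at 12 h and 24 h, and most points right of 0 at 12 h rest on replicate 2.

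Among the fibrillar collagens, COL11A1 was lower at 3 h and 24 h, COL5A3 was lower at 24 h and COL1A2 was higher at 3 h. COL11A1 (ENSG00000060718.22; GRCh38 chromosome 1, 102876467 to 103108872) encodes a chain of type XI collagen, which nucleates thin fibrils and is best known from cartilage. It stood at 388, 367 and 344 CPM at 0 h and at 227 and 301 CPM in the 24 h control. After latrunculin B it stood at 189, 182 and 97.8 CPM at 3 h, 249.7, 188 and 155 CPM at 6 h, 186 and 239.8 CPM at 12 h and 182, 55.8 and 82.8 CPM at 24 h. All 11 drug libraries lay below the 3 libraries of 0 h, and the 3 of 24 h lay below both of their controls. The log2 fold change was -1.23 (SE 0.36, adjusted p 0.0175 by edgeR) at 3 h and -1.30 (SE 0.39, adjusted p 0.0165 by edgeR) at 24 h. The changes of -0.89 (SE 0.35, adjusted p 0.0575 by edgeR) at 6 h and -0.78 (SE 0.40, adjusted p 0.147 by edgeR) at 12 h missed the threshold. The edgeR call at 3 h was lost with the third 3 h library left out (adjusted p 0.0718), and that at 24 h without control 24 h replicate 2, -1.09 (adjusted p 0.108), or without latrunculin B 24 h replicate 3, -1.15 (adjusted p 0.0617). Over all alternatives the 3 h call was lost in 2 of 18 refits, at adjusted p up to 0.159, the highest with control 24 h as the reference. The 24 h call was lost in 3 of 17 refits, at adjusted p up to 0.108.

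The chains of type I collagen did not move alike. COL1A2 (ENSG00000164692.19; chromosome 7, 94394895 to 94431227) stood at 104, 62.9 and 87 CPM at 0 h and at 142, 176 and 362 CPM at 3 h, so that all 3 drug libraries lay above the controls but spread widely. It was at 99.8, 137 and 184 CPM at 6 h, 63.9 and 197 CPM at 12 h, 47.1, 124 and 55.6 CPM at 24 h and 49.4 and 46.5 CPM in the 24 h control. The log2 fold change was 1.42 (SE 0.46, adjusted p 0.0317 by edgeR) at 3 h, 0.73 (SE 0.46, adjusted p 0.228 by edgeR) at 6 h, 0.63 (SE 0.51, adjusted p 0.364 by edgeR) at 12 h and 0.66 (SE 0.53, adjusted p 0.345 by edgeR) at 24 h. The call at 3 h was lost without latrunculin B 3 h replicate 3, 0.89 (adjusted p 0.185), without control 0 h replicate 2, 1.23 (adjusted p 0.12), or without control 0 h replicate 3, 1.44 (adjusted p 0.0792). Over all alternatives it was lost in 5 of 18 refits, at adjusted p up to 0.185. COL1A1 ranged from 30.0 to 33.2 CPM at 0 h and from 30.9 to 35.7 CPM at 3 h, a log2 difference of 0.09 (SE 0.21, adjusted p 0.794 by edgeR). At 24 h all 3 drug libraries of COL1A1, 21.2 to 23.3 CPM, lay below both controls, 28.7 to 30.0 CPM. That log2 difference of -0.41 (SE 0.24, adjusted p 0.191 by edgeR) was not called in the fit of all groups and was called with no 12 h library in the fit, -0.41 (edgeR adjusted p 0.00286).

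COL3A1, the chain of type III collagen of loose connective tissue, and COL5A2, a chain of the fibril-nucleating type V collagen, are neighbours on chromosome 2, at 188974373 to 189012746 and 189031898 to 189225312. COL3A1 stood at 105, 52.5 and 65.2 CPM at 0 h, 63.8, 43.1 and 27 CPM at 3 h, 70.1, 53.6 and 70.4 CPM at 6 h, 69.4 and 90.2 CPM in the 24 h control and 152, 28.5 and 72.1 CPM at 24 h. At 12 h it was 101 CPM in replicate 1 and 684 CPM in replicate 2, far above every other library. COL5A2 stood at 15.5, 8.78 and 13.2 CPM at 0 h and at 7.99, 5.95 and 5.83 CPM at 3 h, where all 3 libraries were below the controls. It was at 10.4, 9.12 and 8.45 CPM at 6 h, 12.2 and 74.6 CPM at 12 h, 11.2 and 14.1 CPM in the 24 h control and 14.9, 6.41 and 8.68 CPM at 24 h. The 12 h libraries exceeded 0 h by a log2 of 2.41 (SE 0.68, adjusted p 0.0142 by edgeR) for COL3A1 and 1.81 (SE 0.52, adjusted p 0.0153 by edgeR) for COL5A2. Without replicate 2 these were 0.45 (edgeR adjusted p 0.649) and -0.03 (edgeR adjusted p 0.965). Both calls were also lost without control 0 h replicate 2, at 2.19 (adjusted p 0.0567) and 1.59 (adjusted p 0.062). COL5A2 at 3 h missed the threshold, -0.92 (SE 0.50, adjusted p 0.188 by edgeR), and passed it with no 12 h library in the fit, -0.92 (edgeR adjusted p 0.0198).

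COL5A1, another chain of type V collagen, ranged from 30.8 to 37.3 CPM over the controls and the 3 h and 6 h libraries, and was 31.7 CPM and 100.01 CPM at 12 h. Its call at 12 h, 0.89 (SE 0.30, adjusted p 0.0307 by edgeR), was lost without replicate 2, -0.17 (edgeR adjusted p 0.3). It was lost too without any 1 of the 3 control 0 h libraries, with values of 0.84 to 0.93 and adjusted p of 0.0564 to 0.0867 by edgeR. COL5A3, a minor chain of type V, was counted at low depth: 37 and 62 reads in the 24 h control and 22, 15 and 15 reads at 24 h. It stood at 2.03, 1.64 and 1.53 CPM at 0 h, 1.05, 0.938 and 1.06 CPM at 3 h, 1.14, 1.1 and 1.41 CPM at 6 h, 0.918 and 6.36 CPM at 12 h, 1.25 and 1.94 CPM in the 24 h control and 0.75, 0.46 and 0.499 CPM at 24 h. The 24 h drug libraries lay below both controls, with a log2 fold change of -1.49 (SE 0.55, adjusted p 0.0454 by edgeR). The call was lost on leaving out either control library or latrunculin B 24 h replicate 2 or 3, with values of -1.76 to -1.14 and adjusted p of 0.0735 to 0.241 by edgeR. Over all alternatives it was lost in 8 of 16 refits, at adjusted p up to 0.287. Its 3 h level, not called in the fit of all groups at -0.77 (SE 0.49, adjusted p 0.264 by edgeR), passed with no 12 h library in the fit, -0.77 (edgeR adjusted p 0.0234).

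Of the other interstitial collagens, COL6A1, COL12A1 and COL14A1 were lower at 24 h in the fit of all groups. In that fit none was called higher in any drug comparison. COL12A1 (ENSG00000111799.22; chromosome 6, 75084326 to 75206267) encodes type XII collagen, which links fibrils to the surrounding matrix. It stood at 86, 73.7 and 72 CPM at 0 h, 74.1, 68.3 and 64.3 CPM at 3 h and 78.4, 69.6 and 64.1 CPM at 6 h, so that the groups overlapped. It was at 44.2 and 146 CPM at 12 h, 65.2 and 71.4 CPM in the 24 h control and 45.2, 20.3 and 26.6 CPM at 24 h. All 3 libraries of 24 h were below every control library, with a log2 fold change of -1.16 (SE 0.37, adjusted p 0.0239 by edgeR). The call was lost without either control 24 h library and without latrunculin B 24 h replicate 2 or 3, with values of -1.22 to -0.93 and adjusted p of 0.0741 to 0.0985 by edgeR. Over all alternatives that call was lost in 8 of 17 refits, at adjusted p up to 0.099. With no 12 h library in the fit it was -1.16 (edgeR adjusted p 0.00106). Against the 6 h libraries, with no control in the comparison, the 24 h libraries differed by -1.21 (SE 0.34, adjusted p 0.0135 by edgeR), a call lost without latrunculin B 24 h replicate 2 (adjusted p 0.0597) or 3 (adjusted p 0.052). In that comparison 7 of 39 genes were called, 2 higher and 5 lower, where 37.9% of all genes tested were called (19.0% higher and 18.9% lower).

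COL6A1 and COL6A2 are neighbouring genes of chromosome 21 for chains of type VI collagen, the beaded microfilament around many cell types. COL6A1 held a narrow range of 130.1 to 138 CPM at 0 h, 134 to 147 CPM at 3 h and 132 to 142 CPM at 6 h. It was 84.5 to 112 CPM at 12 h, 118 to 133 CPM in the 24 h control and 84.3 to 107 CPM at 24 h, where drug and control did not overlap. The log2 fold change was -0.45 (SE 0.11, adjusted p 0.0063 by edgeR) at 12 h and -0.42 (SE 0.11, adjusted p 0.00766 by edgeR) at 24 h. The call at 12 h was lost without replicate 2, -0.26 (edgeR adjusted p 0.0833), and that at 24 h without control 24 h replicate 1, -0.33 (adjusted p 0.103). COL6A2 was 90.8 to 95.3 CPM at 6 h and 49.2 to 60.2 CPM at 24 h, a called log2 difference of -0.79 (SE 0.17, adjusted p 0.00224 by edgeR), and 62.2 to 69.7 CPM in the 24 h control, against which it differed by -0.30 (SE 0.19, adjusted p 0.222 by edgeR). That difference passed with no 12 h library in the fit, -0.30 (edgeR adjusted p 0.0286). COL6A3, the third chain, was 3.37 to 8.46 CPM outside 12 h and was not called. COL14A1, a fibril-associated collagen, differed between its controls, which held 14.2 to 16.5 CPM at 0 h and 28.5 to 31.6 CPM at 24 h. At 24 h of drug it was 12.4 to 23.7 CPM, -0.88 (SE 0.21, adjusted p 0.0044 by edgeR) against the 24 h control, but 0.07 (adjusted p 0.798) against the 0 h control, so its direction depends on the control used.

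**Figure D5:**
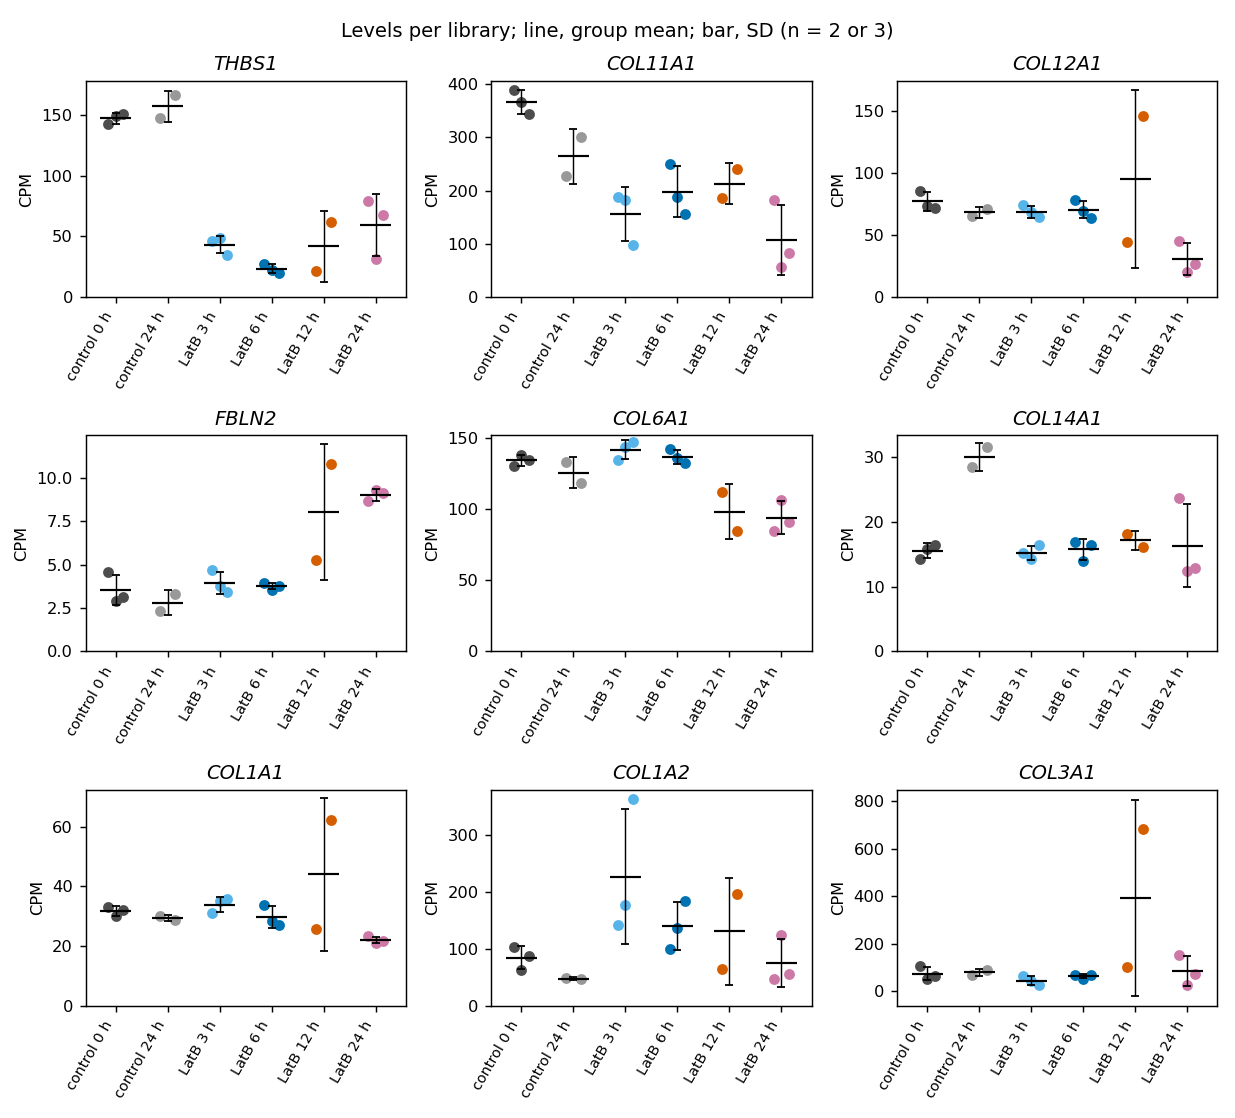
CPM of 9 collagens and matrix genes in every library (points), with the group mean (line) and SD (bar; n = 2 or 3). THBS1 lies at 142 to 166 CPM in the 5 controls and at 20.0 to 79.4 CPM in the 11 drug libraries, FBLN2 is high at 24 h, COL14A1 is high in the 24 h controls, and 1 library of 12 h carries the high points of COL3A1, COL1A1 and COL12A1.

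The 3 small leucine-rich proteoglycans, which bind collagen fibrils, were not called at 3, 6 or 24 h in the fit of all groups. LUM, lumican of the corneal and dermal stroma, stood at 12.2, 7.47 and 8.61 CPM at 0 h, 8.82, 8.08 and 4.63 CPM at 3 h, 9.82, 9.23 and 7.92 CPM at 6 h and 14.8 and 75.4 CPM at 12 h. At 24 h it was 13.8 and 16.3 CPM in the control and 19, 3.9 and 8.51 CPM with the drug, where replicate 1 lay above both controls and the other 2 below. The call of LUM at 12 h, 2.27 (SE 0.59, adjusted p 0.00941 by edgeR), was lost without replicate 2, 0.65 (edgeR adjusted p 0.434). DCN, decorin, was read 20, 19 and 31 times at 0 h and 43, 3 and 3 times at 24 h, and 252 times in 12 h replicate 2. At those counts its differences of -1.67 (SE 0.98, adjusted p 0.224 by edgeR) at 3 h and -1.26 (SE 0.97, adjusted p 0.323 by edgeR) at 24 h were not called. When the fit held just the groups compared, DCN was called lower at 3 h, where 36.5% of all genes were called. BGN, biglycan, ranged from 2.46 to 5.93 CPM outside 12 h and was 3.1 CPM and 9.47 CPM at 12 h.

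FBLN2 was the 1 elastic fibre gene higher at 24 h. FBLN2 (ENSG00000163520.14; chromosome 3, 13549125 to 13638422) encodes fibulin-2, a secreted glycoprotein of basement membranes and microfibrils. It stood at 4.54, 2.91 and 3.14 CPM at 0 h, 4.67, 3.75 and 3.44 CPM at 3 h and 3.92, 3.56 and 3.77 CPM at 6 h, with no separation. It was at 5.25 and 10.8 CPM at 12 h and at 8.63, 9.27 and 9.11 CPM at 24 h, against 2.3 and 3.32 CPM in the 24 h control. All 3 libraries of 24 h were above every control library, and they lay close together. The log2 fold change was 1.68 (SE 0.28, adjusted p 4.55e-04 by edgeR) at 24 h and 1.19 (SE 0.27, adjusted p 0.00364 by edgeR) at 12 h. The 12 h call was lost without replicate 2, 0.57 (edgeR adjusted p 0.104), whereas the 24 h call held in each of the 17 alternatives tried. The libraries of 24 h also exceeded those of 6 h, by 1.26 (SE 0.24, adjusted p 0.00115 by edgeR).

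In the fit of all groups, the fibrillins were not called at 3, 6 or 24 h. FBN1, the main fibrillin of microfibrils, stood at 35.1, 31.6 and 36.6 CPM at 0 h, 33.6, 34.9 and 29.4 CPM at 3 h, 38.2, 34.9 and 32.1 CPM at 6 h and 31.2 and 128 CPM at 12 h. It was 25.9 and 29.8 CPM in the 24 h control and 37.7, 20.7 and 21.2 CPM at 24 h, with overlap. Its call at 12 h, 1.22 (SE 0.39, adjusted p 0.0279 by edgeR), turned without replicate 2 to -0.14 (edgeR adjusted p 0.731), and was lost without any 1 of the 3 control 0 h libraries, with values of 1.14 to 1.26 and adjusted p of 0.0583 to 0.0826 by edgeR. FBN2, the fetal fibrillin, was 24.9 to 31.7 CPM at 0 h and 12.4 to 18.2 CPM at 3 h, without overlap, yet the log2 difference of -0.86 (SE 0.56, adjusted p 0.277 by edgeR) was not called. When the fit held just the groups compared, FBN2 was called lower at 3 h and 6 h, where 36.5% and 51.8% of all genes were called. FBLN5, fibulin-5, ranged from 2.19 to 4.43 CPM over all libraries and was called in none of the drug comparisons in the fit of all groups. At 6 h it was called lower when the fit held just the groups compared. In the fit of all groups it was lower at 24 h than at 6 h of drug, -0.50 (SE 0.18, adjusted p 0.0402 by edgeR). That call was lost without latrunculin B 6 h replicate 1, 2 or 3 or 24 h replicate 2 or 3, with values of -0.53 to -0.46 and adjusted p of 0.0686 to 0.115 by edgeR. Over all alternatives this difference was lost in 11 of 17 refits, at adjusted p up to 0.651.

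Of the 5 lysyl oxidases, the copper enzymes that crosslink collagen and elastin, LOXL4 was lower at 12 h and 24 h. It was 4.59 to 4.9 CPM at 0 h, 3.68 to 4.09 CPM at 3 h, 3.81 to 3.9 CPM at 6 h and 1.71 to 3.48 CPM at 12 h. At 24 h it was 1.7 to 2.15 CPM against 3.39 to 4.04 CPM in the control, without overlap. The log2 fold change was -0.99 (SE 0.22, adjusted p 0.0032 by edgeR) at 24 h, a call that held in each of the 17 alternatives, and -0.86 (SE 0.23, adjusted p 0.0101 by edgeR) at 12 h, which was lost without replicate 1, -0.45 (edgeR adjusted p 0.0624), and rose in size without replicate 2, -1.47 (edgeR adjusted p 1.29e-04). LOXL1 was 28.7 to 31.2 CPM at 0 h and 17.3 to 23 CPM at 12 h, -0.57 (SE 0.16, adjusted p 0.016 by edgeR), also lost without replicate 1, -0.38 (edgeR adjusted p 0.139). LOX itself stood at 0.757, 0.67 and 1.06 CPM at 0 h, 0.639, 0.902 and 1.16 CPM at 3 h, 1.22, 0.908 and 0.829 CPM at 6 h, 0.962 and 4.46 CPM at 12 h, 1.22 and 0.939 CPM in the 24 h control and 0.989, 0.644 and 1.23 CPM at 24 h. Its call at 12 h, 1.73 (SE 0.49, adjusted p 0.0151 by edgeR), was lost without replicate 2, 0.22 (edgeR adjusted p 0.756), and without control 0 h replicate 2, 1.58 (adjusted p 0.0573). LOXL2 was 6.72 to 12.4 CPM and LOXL3 8.69 to 12.5 CPM outside 12 h, and neither was called in a drug comparison in the fit of all groups.

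THBS1 was the 1 stromal gene called lower at every time of drug. THBS1 (ENSG00000137801.11; chromosome 15, 39581079 to 39599466) encodes thrombospondin-1, a secreted matricellular glycoprotein that activates latent TGF-beta and is a known target of YAP and of serum response factor signalling. It stood at 142, 149 and 151 CPM at 0 h and 148 and 166 CPM in the 24 h control. It was at 45.9, 48.2 and 34.8 CPM at 3 h, 27.5, 22.5 and 20.0 CPM at 6 h, 21 and 62.1 CPM at 12 h and 79.4, 31 and 67.8 CPM at 24 h. The 5 controls lay close together, and all 11 drug libraries lay below them. The log2 fold change was -1.78 (SE 0.34, adjusted p 0.00144 by edgeR) at 3 h, -2.66 (SE 0.36, adjusted p 6.36e-05 by edgeR) at 6 h, -1.81 (SE 0.40, adjusted p 0.00338 by edgeR) at 12 h and -1.41 (SE 0.37, adjusted p 0.00782 by edgeR) at 24 h. Without 12 h replicate 2 the 12 h value was -2.81 (edgeR adjusted p 3.48e-04). The 3 libraries of 24 h were also all above those of 6 h, by 1.34 (SE 0.35, adjusted p 0.00904 by edgeR). THBS1 held its call in every alternative tried.

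Latrunculin B lowers the pool of polymerised actin, and TEAD factors (partners of YAP) and serum response factor are the DNA-binding proteins best known to answer to it, so the promoters of the members were searched for GGAATG, the core of the TEAD motif, and for the CArG box, the site of serum response factor, on both strands. RefSeq windows (GRCh38.p14, 250 bases before to 50 after the start) were matched for 27 of the 41 genes, in 40 windows. GGAATG stood in 6 of the 40 windows (15%), those of COL12A1, FBN1, LOXL3, THBS1, THBS2 and ZEB1, and in 14% of all 35116 windows. The share in the members was thus near that of promoters at large. The CArG box stood in 0 of the 40 and in 1.29% of all windows. The 250 bases before the RefSeq start are shown for THBS1 (chr15:39580829-39581078, plus strand), the gene called at every time, with GGAATG in capitals 46 bases before the start.
THBS1: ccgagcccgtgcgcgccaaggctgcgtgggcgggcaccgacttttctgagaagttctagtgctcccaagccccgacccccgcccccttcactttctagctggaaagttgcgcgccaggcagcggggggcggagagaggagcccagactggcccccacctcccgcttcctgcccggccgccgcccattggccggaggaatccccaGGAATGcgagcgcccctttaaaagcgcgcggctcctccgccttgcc
A match of letters is a description and does not show that a factor binds there.

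The other matricellular genes showed little. TNC, tenascin-C of wounds and developing mesenchyme, stood at 3.94, 3.79 and 4.37 CPM at 0 h, 3.8, 2.78 and 3.0 CPM at 3 h, 3.61, 3.37 and 3.4 CPM at 6 h, 3.41 and 31.2 CPM at 12 h, 2.81 and 4.29 CPM in the 24 h control and 4.06, 2.42 and 3.06 CPM at 24 h. One library of 12 h was far above the rest, and the call there, 2.11 (SE 0.56, adjusted p 0.01 by edgeR), turned without it to -0.24 (edgeR adjusted p 0.584). THBS2, thrombospondin-2, was read 11, 15 and 12 times at 0 h and 9, 2 and 4 times at 3 h. That is 0.438, 0.502 and 0.509 CPM and 0.288, 0.0722 and 0.136 CPM, a log2 fold change of -1.50 (SE 0.43, adjusted p 0.0168 by edgeR) that was lost without latrunculin B 3 h replicate 2, -1.18 (adjusted p 0.0592), or replicate 3, -1.39 (adjusted p 0.0601). Over all alternatives this call was lost in 5 of 17 refits, at adjusted p up to 0.565, the highest by limma on log2(TPM + 1). It was 0.457, 0.643 and 0.332 CPM at 6 h, 0.612 and 1.08 CPM at 12 h, 0.44 and 0.595 CPM in the 24 h control and 0.58, 0.583 and 0.598 CPM at 24 h, so the low level was seen at 3 h alone. TGFBI, a secreted adhesion protein induced by TGF-beta, was 16.2 to 17.5 CPM at 0 h and 22.4 to 27.8 CPM at 6 h, 0.55 (SE 0.15, adjusted p 0.0111 by edgeR), and 22.9 to 31.2 CPM at 12 h, 0.70 (SE 0.17, adjusted p 0.00596 by edgeR). The 24 h control, 21.7 to 23.2 CPM, was also above 0 h, and against it neither change passed, with values of 0.12 (adjusted p 0.61) and 0.27 (adjusted p 0.279). The 6 h call was lost without latrunculin B 6 h replicate 1, 0.42 (adjusted p 0.0645), and the 12 h call without replicate 2, 0.45 (edgeR adjusted p 0.0965). POSTN, periostin, was 6.13 to 15.6 CPM in the controls and 1.81 to 16.5 CPM with the drug outside 12 h. MGP, an inhibitor of calcification, was read 2 to 31 times per library, and neither was called.

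Among the surface and filament genes, PDGFRA, the receptor of the platelet-derived growth factor on mesenchymal progenitors, was lower at 6 h. It was 15.1 to 18.3 CPM at 0 h and 12.6 to 13.2 CPM at 6 h, -0.37 (SE 0.11, adjusted p 0.0174 by edgeR), but 12.5 to 13.6 CPM in the 24 h control, against which the 6 h value was -0.01 (adjusted p 0.94). The call was lost without control 0 h replicate 2, -0.32 (adjusted p 0.0664). Over all alternatives the 6 h call was lost in 5 of 18 refits, at adjusted p up to 0.94. At 3 h it differed by -0.27 (SE 0.11, adjusted p 0.0833 by edgeR), which passed with no 12 h library in the fit, -0.27 (edgeR adjusted p 0.00975). VIM was 300.3 to 382 CPM in the controls, 162 to 244 CPM at 3 h, 209 to 271 CPM at 6 h, 213 to 540.2 CPM at 12 h and 144 to 307 CPM at 24 h. All 6 libraries of 3 h and 6 h lay below the controls, and the differences of -0.61 (SE 0.30, adjusted p 0.147 by edgeR) at 3 h and -0.63 (SE 0.33, adjusted p 0.146 by edgeR) at 24 h passed with no 12 h library in the fit, -0.61 (edgeR adjusted p 0.0455) and -0.63 (edgeR adjusted p 0.0472). PDGFRB, the receptor of pericytes, was 3.96 to 6.18 CPM in the controls and 2.18 to 4.86 CPM with the drug outside 12 h, and passed at 6 h and 24 h with no 12 h library in the fit, -0.70 (edgeR adjusted p 0.0222) and -0.73 (edgeR adjusted p 0.03). THY1 was 0.215 to 0.996 CPM outside 12 h and was not called.

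No transcription factor of the mesenchymal state was called at 3, 6 or 24 h in the fit of all groups. ZEB1, which represses epithelial genes, stood at 1.08, 1.54 and 1.78 CPM at 0 h, 0.991, 0.649 and 1.36 CPM at 3 h, 1.52, 1.78 and 1.2 CPM at 6 h, 1.62 and 5.48 CPM at 12 h, 1.66 and 1.47 CPM in the 24 h control and 3.07, 2.24 and 3.26 CPM at 24 h. All 3 libraries of 24 h lay above the controls, by 0.86 (SE 0.43, adjusted p 0.127 by edgeR), which passed with no 12 h library in the fit, 0.87 (edgeR adjusted p 0.0323). SNAI2, a repressor of the same kind, stood at 1.75, 1.14 and 1.27 CPM at 0 h, 1.05, 0.722 and 1.02 CPM at 3 h, 1.56, 0.832 and 1.2 CPM at 6 h, 1.49 and 4.16 CPM at 12 h, 1.12 and 1.44 CPM in the 24 h control and 2.46, 1.96 and 1.93 CPM at 24 h. Its 24 h libraries were likewise all above the controls, by 0.72 (SE 0.39, adjusted p 0.156 by edgeR), without passing. TWIST1, which marks head and body wall mesenchyme, stood at 1.12, 0.77 and 0.636 CPM at 0 h, 0.447, 0.397 and 0.409 CPM at 3 h, 1.07, 0.719 and 1.12 CPM at 6 h, 1.27 and 6.86 CPM at 12 h, 0.644 and 0.751 CPM in the 24 h control and 1.43, 0.552 and 0.598 CPM at 24 h. The calls at 12 h, 2.28 (SE 0.55, adjusted p 0.00589 by edgeR) for TWIST1, 1.28 (SE 0.42, adjusted p 0.0281 by edgeR) for ZEB1 and 1.04 (SE 0.37, adjusted p 0.0451 by edgeR) for SNAI2, became 0.59 (edgeR adjusted p 0.41), 0.14 (edgeR adjusted p 0.825) and 0.10 (edgeR adjusted p 0.873) without replicate 2. The call of ZEB1 was lost too without control 0 h replicate 1 (adjusted p 0.0872 by edgeR) or 2 (adjusted p 0.0641), and that of SNAI2 without control 0 h replicate 2 (adjusted p 0.138 by edgeR) or 3 (adjusted p 0.111). PRRX1 was 0.532 to 1.35 CPM over all libraries, 12 h replicate 2 included, and ZEB2 0.409 to 2.97 CPM outside 12 h, and neither was called.

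Few genes were called between the controls, which with 3 and 2 libraries does not show equal levels. Log2 differences of the 39 genes ran from -0.82 (COL1A2) to 0.95 (COL14A1), with a median of -0.12. COL1A2 was 62.9 to 104 CPM at 0 h and 46.5 to 49.4 CPM at 24 h. Between 24 h and 0 h edgeR called 0 of 39 stromal genes, where 0.251% of all genes tested were called (0.0299% higher and 0.221% lower), and 4 had an unadjusted p under 0.05, where 8.46% of all genes did. DESeq2 called 1, a higher COL14A1, which edgeR called too with just the controls in the fit, where 1.36% of all genes were called, and with no 12 h library in the fit, 0.95 (edgeR adjusted p 0.048). In that fit 1.32% of all genes were called (0.18% higher and 1.14% lower). The effect of the drug at 24 h differed from that at 3 h for 3 of 39 genes, 1 higher and 2 lower, where 27.9% of all genes tested were called (14.6% higher and 13.4% lower). These were FBLN2, COL6A1 and COL14A1. With no 12 h library in the fit this test called 10 of 39 (4 higher, 6 lower), where 34.6% of all genes were called (17.7% higher and 16.9% lower), and the comparison of 24 h with 6 h of drug called 13 of 39 (4 higher, 9 lower), where 43.3% were (21.5% higher and 21.8% lower). When the fit held just the groups compared, the difference was called for 9 of 39, where 32.1% of all genes were, and 24 h against 6 h of drug for 12 of 39, where 43.4% were.

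Genes that fold, trim and remodel collagen were called in both directions, in counts to be read beside the 31.6% at 3 h, 43.3% at 6 h, 35.8% at 12 h and 40.8% at 24 h of all genes called. Of 26 genes of collagen folding and processing, 24 were tested, and 3 were called at 3 h (2 higher, 1 lower), 8 at 6 h (3 higher, 5 lower), 12 at 12 h (7 higher, 5 lower) and 7 at 24 h (2 higher, 5 lower). The 4 with the largest called change at 24 h were TLL1, a procollagen C-proteinase, at -2.24, the prolyl 3-hydroxylase P3H2 at -0.94, the lysyl hydroxylase PLOD2 at -0.78, and the collagen galactosyltransferase COLGALT1 at 0.64 on the log2 scale. Of 15 matrix proteases and inhibitors 11 were tested, and 2 were called at 3 h (1 higher, 1 lower), 2 at 6 h (1 higher, 1 lower), 4 at 12 h (all higher) and 5 at 24 h (2 higher, 3 lower). TIMP3, an inhibitor of metalloproteinases, changed by 1.38 and MMP16, a membrane metalloproteinase, by 1.05, whereas CTSK, a collagen-cleaving cathepsin, changed by -0.91 and MMP11 by -0.86 at 24 h. Of 28 other stromal matrix genes 25 were tested, and 1 was called at 3 h (higher), 7 at 6 h (3 higher, 4 lower), 10 at 12 h (5 higher, 5 lower) and 13 at 24 h (4 higher, 9 lower). Their largest called changes at 24 h were 2.67 for COL16A1, at 0.102 to 0.157 CPM in the control and 0.307 to 1.5 CPM with the drug, -2.20 for the fibulin EFEMP1, 1.80 for the microfibril protein MFAP4 and -1.76 for the fibrillar collagen COL24A1. All of these named changes at 24 h passed the test, with edgeR adjusted p from 1.67e-05 to 0.0204. At 12 h these counts include the library that stood apart. Without replicate 2, which leaves 1 library at 12 h, fewer genes of each of these lists were called higher and more were called lower. Of all genes tested, fewer were called in either direction than with both libraries. The median at 24 h was 0.08 for the processing genes, -0.06 for the proteases and inhibitors and -0.25 for the other matrix genes, beside -0.30 for the 39 and 0.01 for all genes tested.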

How the data were processed

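Poly(A) RNA-seq of 16 libraries in 6 groups, assigned by their labels, was analysed from transcript tables. The authors deposited estimated counts and TPM values per transcript and library, which the submitters' notes credit to Salmon 1.3.0 on hg38, whereas the study's methods describe STAR alignment and gene counts, so the exact upstream settings are not given in the sources used here. Salmon shares reads between similar transcripts, and use of strand is not stated. A further deposited table of the authors' log2 fold changes, adjusted p-values and 16 columns of sample values was not used.

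Transcripts (177456, of which 165533 matched) were joined to genes through GENCODE 44 on GRCh38. Reads of unmatched transcripts, 2.92% to 3.17% per library, were left out. Estimated counts were summed per gene and rounded, and TPM summed. Depth was 23609727 to 33515398 reads per library, and precision follows the reads per gene.

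Counts were tested with edgeR 4.0.16 (R 4.3.3): quasi-likelihood F test, two-sided, 6 groups in one fit, TMM scaling (factors 0.947 to 1.05), filterByExpr by group (16705 genes), Benjamini-Hochberg adjustment over all genes tested, called under 0.05. SE is the log2 fold change over the square root of F. CPM uses TMM-scaled library sizes. The 41 genes, the roles and the comparison lists were chosen with earlier results of these data known. Libraries are named singly for genes called in a drug comparison with a log2 change of at least 1, and other genes by range. Of other lists, the 4 largest called changes at 24 h were named. The edgeR test at 3 h was run on simulated counts with 200 genes changed and the same spread in all groups. That setting does not cover the unlike 12 h pair or the other tests.

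Alternatives were DESeq2 1.42.0, limma 3.58.1 on log2(TPM + 1) and log2(TPM + 0.1), RLE factors, unscaled library sizes, all genes kept, genes with 50 or more counts on average, a transcript length offset, a replicate block, a fold threshold, only the compared groups, another control, leaving out each library, and, added after seeing the data, no 12 h library in the fit. Promoter windows came from RefSeq (GRCh38.p14).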

Additional observations from a re-analysis of the deposited data

Results flagged for a closer look

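For 3 genes the effect of latrunculin B at 24 h, taken against the 24 h control, differed from its effect at 3 h, taken against the 0 h control, by edgeR's test of the difference itself. FBLN2 had a difference of 1.51 (SE 0.37, adjusted p 0.00858 by edgeR) on the log2 scale, with an effect of 0.17 at 3 h and 1.68 at 24 h. The call was lost without control 24 h replicate 1, at 1.27 (adjusted p 0.0578). COL6A1 had a difference of -0.50 (SE 0.15, adjusted p 0.0219 by edgeR), with 0.08 at 3 h and -0.42 at 24 h, lost without control 24 h replicate 1, at -0.41 (adjusted p 0.12). COL14A1 had a difference of -0.86 (SE 0.29, adjusted p 0.0393 by edgeR), with -0.03 at 3 h and -0.88 at 24 h. Its drug libraries lay at 14.2 to 16.4 CPM at 3 h and 12.4 to 23.7 CPM at 24 h, and its controls at 14.2 to 16.5 CPM at 0 h and 28.5 to 31.6 CPM at 24 h. The call of COL14A1 was lost on leaving out any 1 of the 3 control 0 h, 2 control 24 h or 3 latrunculin B 3 h libraries, or latrunculin B 24 h replicate 2 or 3, with values of -0.93 to -0.69 and adjusted p of 0.0526 to 0.119 by edgeR. No group has the 4 samples that a search for outlying samples needs.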

How the results depend on the processing

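The 41 called changes of single genes kept direction and call in 552 of 698 refits, kept the direction alone in 141 and turned in 5. Those 5 were, without latrunculin B 12 h replicate 2, TNC (-0.24), COL5A1 (-0.17), FBN1 (-0.14) and COL5A2 (-0.0317) at 12 h, and, with control 0 h as the reference, COL14A1 at 24 h (0.0700). Leaving out either 12 h library, or 1 control, moved the 12 h values up to 2.95 for TNC, 1.49 for COL5A1, 1.90 for FBN1 and 2.58 for COL5A2. Of 39 genes, 4 were called at 3 h, 3 at 6 h, 16 at 12 h, 8 at 24 h, 0 between the controls, 3 for the difference of effects and 7 for 24 h against 6 h of drug. When the fit held just the groups compared, these were 11, 11, 4, 10, 1, 9 and 12, beside 36.5%, 51.8%, 17.9%, 39.3%, 1.36%, 32.1% and 43.4% of all genes. With no 12 h library in the fit, an alternative chosen after seeing the data, they were 8 at 3 h, 4 at 6 h, 13 at 24 h, 1 between the controls, 10 for the difference and 13 for 24 h against 6 h. With a log2 fold change of at least 1 required as well, 1 was called at 6 h, 5 at 24 h, 1 for the difference and 4 for 24 h against 6 h. By limma-trend on log2(TPM + 1) or log2(TPM + 0.1), 2 were called at 3 h under each, and 9 or 8 at 12 h. Of all genes, these called 3625 or 3627 at 3 h and 4056 or 3981 at 12 h. Without scaling 5 were called at 6 h, beside 7182 of all genes. Between the controls DESeq2 and the fit without a filter on low counts each called 1, beside 248 and 91 of all genes. Leaving out 1 library at a time gave 1 to 4 at 3 h, 2 to 3 at 6 h, 5 to 27 at 12 h, 5 to 10 at 24 h, 0 to 0 between the controls, 0 to 4 for the difference and 5 to 10 for 24 h against 6 h. For all genes, leaving out 1 library at a time gave 4145 to 4720 at 3 h, 5935 to 6618 at 6 h and 5059 to 5743 for 24 h against 6 h. Where 2 or more libraries stayed in each group, it gave 4826 to 5448 at 12 h and 5584 to 6424 at 24 h. On the same terms it gave 2 to 9 between the controls and 3959 to 4535 for the difference. The shares of all genes with either 12 h library alone stand with the 12 h counts above. At 12 h the library that decides the count of stromal genes is replicate 2.

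With the replicate block, 4 genes were called at 3 h, 4 at 6 h, 13 at 12 h, 6 at 24 h, 0 between the controls, 3 for the difference and 8 for 24 h against 6 h. In the same order, 4853, 6863, 5364, 6005, 6, 4107 and 5902 of all 16705 genes tested were called. Deviations of same-numbered libraries from their group means correlated at -0.21 to 0.11 over 36 pairs, with 1 above 0.1. The means are of 2 or 3 libraries, and in groups of 2 the deviations mirror each other. Whether same-numbered libraries shared a batch therefore cannot be told from these values. For all genes tested, the count between the controls was 42 and ran from 2 (limma, or without control 0 h replicate 1) to 248 (DESeq2). The 12 h count of 5988 became 2828 when the fit held just the groups compared and 3981 by limma on log2(TPM + 0.1). The 24 h count of 6809 became 4034 without control 24 h replicate 1, and the 4665 genes of the difference became 3013 without it, 2978 with the transcript length offset and 2941 or 2940 by limma. With a log2 fold change of at least 1 required as well, all-gene counts were 614 at 3 h, 1033 at 6 h, 1266 at 12 h, 1213 at 24 h, 960 for the difference and 865 for 24 h against 6 h. The cause of the other shifts was not tested.

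Depth limits the low genes: THBS2, MGP and PRRX1 were read under 50 times in each library and DCN, THY1, TWIST1 and LOX in 15 of 16. The 12 h group has 2 unlike libraries, the 24 h control 2, and no vehicle control stands beside 3, 6 and 12 h.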
